A study of Mus musculus with 6 samples.

Results

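The genes of cholesterol synthesis and its control were examined in the myometrium, the smooth muscle wall of the uterus, of pregnant mice with and without Tcf23. The set holds 31 of the 55055 genes in the deposited table, taken by gene symbol: 18 enzymes of cholesterol synthesis, 5 regulators of the pathway, 5 genes of fatty acid synthesis and desaturation, 2 cholesterol exporters and 1 sterol carrier. All 31 had enough reads to be tested, so none was lost to the filter on low counts. The samples were the TCF23 WT group (wild-type, 3 libraries) and the TCF23 KO group (Tcf23 knocked out with CRISPR/Cas9, 3 libraries), both labelled E19.5, each library from a different animal. No source used here gives the strain, maternal age, number of founder lines or extent of the deletion. The study asked how Tcf23, which encodes a basic helix-loop-helix protein, acts in the contraction of this muscle late in pregnancy.

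Cells make cholesterol from acetyl-CoA through mevalonate, isoprenoid pyrophosphates, squalene and lanosterol. The pathway is set mainly by SREBP transcription factors, which are held in the endoplasmic reticulum by SCAP and INSIG proteins when sterols are plentiful and are cut and released when sterols run short. SREBP-2, from Srebf2, acts chiefly on cholesterol genes and SREBP-1, from Srebf1, largely on fatty acid genes. When oxysterols build up, the nuclear receptor LXR turns on exporters such as ABCA1 and ABCG1. In the uterus cholesterol is known as a component of the caveolae and membrane rafts of the muscle cell, where it bears on contractility.

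Promoters are shown for 4 genes. They are Hmgcs1, the only one of the genes in the promoter table with the searched sterol regulatory element core in its window, and Idi1, Srebf2 and Insig2. Those last were lower in knockout at an unadjusted edgeR p under 0.05. Each line gives the 250 bases before the transcription start, 5′ to 3′ on the gene's strand, from the RefSeq table for GRCm38.p6. Capitals mark the CCAAT box, which NF-Y binds beside SREBP, on either strand (ATTGG on the other), and in Hmgcs1 also the core TCACNCCAC. The windows lie at chr13:119690101-119690350 (plus strand) for Hmgcs1, chr13:8885356-8885605 (plus) for Idi1, chr15:82147019-82147268 (plus) for Srebf2 and chr1:121332590-121332839 (minus) for Insig2, shown for the outermost of its 3 starts in the table. Its other starts have 0 CCAAT boxes in their windows, and which start is used in this tissue was not tested.
Hmgcs1: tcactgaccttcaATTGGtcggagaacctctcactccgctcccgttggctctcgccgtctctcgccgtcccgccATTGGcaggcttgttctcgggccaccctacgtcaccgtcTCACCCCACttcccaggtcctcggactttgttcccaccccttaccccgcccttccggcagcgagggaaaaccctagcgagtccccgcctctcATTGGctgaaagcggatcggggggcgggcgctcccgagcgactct
Idi1: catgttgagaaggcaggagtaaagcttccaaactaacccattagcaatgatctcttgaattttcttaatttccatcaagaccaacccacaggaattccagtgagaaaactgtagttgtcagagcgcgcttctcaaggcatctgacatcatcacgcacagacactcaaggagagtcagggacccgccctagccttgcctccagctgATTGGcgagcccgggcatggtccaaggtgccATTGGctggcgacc
Srebf2: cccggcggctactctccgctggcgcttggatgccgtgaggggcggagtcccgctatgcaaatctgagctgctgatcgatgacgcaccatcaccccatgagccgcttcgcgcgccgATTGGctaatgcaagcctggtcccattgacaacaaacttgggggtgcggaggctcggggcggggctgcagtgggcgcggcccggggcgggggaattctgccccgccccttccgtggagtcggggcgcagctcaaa
Insig2: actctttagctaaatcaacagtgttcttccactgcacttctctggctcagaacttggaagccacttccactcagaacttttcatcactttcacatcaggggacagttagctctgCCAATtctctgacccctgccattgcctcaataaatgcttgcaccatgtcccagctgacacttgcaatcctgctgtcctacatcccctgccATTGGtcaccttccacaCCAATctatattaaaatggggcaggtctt

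The table held promoters of 24 of the 31 genes (32 promoters of 300 bases, reaching 50 bases past the start), and 15 of the 18 synthesis enzymes were among them. CCAAT was found in 14 of these 15 genes, and in 14 of their 18 promoters (77.8%), against 37.0% of 16529 promoters of tested genes. Motifs were searched on both strands, with overlaps allowed. The core TCACNCCAC was found in 1 of the 18 enzyme promoters, that of Hmgcs1, 137 bases before its start, and in 1.14% of promoters of tested genes. The E-box CACGTG was in 16.7% of enzyme promoters and 9.15% of promoters of tested genes, and the GC box GGGCGG in 83.3% and 56.5%. These are matches of letters in a short window, and binding was not measured.

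Total counts were 47345181 to 55236312 in wild-type and 39939686 to 65036402 in knockout. Tcf23 had 3092 to 5944 normalized counts in wild-type and 0, 1.85 and 1.26 in knockout replicates 1, 2 and 3 (log2 −12.03 ± 0.52 SE, edgeR adjusted p = 0.000637), so the genotype labels matched in 6 of 6 libraries. Levels below are the deposited normalized counts, which are raw counts times 1 constant per library. Changes and adjusted p-values are from edgeR's quasi-likelihood test on the raw counts, adjusted over 19599 genes. The smooth muscle genes that define the tissue were abundant in all libraries, with 11 markers summing to 1415710 to 1673100 normalized counts in wild-type and 809961 to 2052940 in knockout. In bulk tissue, fewer cells of a type and less RNA per cell cannot be told apart.

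No member of the set passed the edgeR threshold of 0.05 in either direction (0 of 31 lower, where 0.0204% of all tested genes were, and 0 higher, where 0% were). At an unadjusted p under 0.05, 3 members were lower (Idi1, Srebf2 and Insig2; 9.68% of members against 3.29% of all genes) and 1 was higher (Abcg1; 3.23% against 5.27%). DESeq2 on the same counts called Idi1 lower and Abcg1 higher at its adjusted p (1 of 31 in each direction, against backgrounds of 0.67% and 1.22%), and limma-voom called 0 in either direction. The genotypes did not overlap for 4 members on the lower side (12.9%, background 7.31%), the fourth being Sc5d, and for 1 on the higher side (3.23%, background 7.1%). With the replicate number as a block, 5 members were lower at an unadjusted p under 0.05, by the addition of Sc5d and Hsd17b7 (background 4.21%), and 1 was higher (Abcg1, background 6.25%). At the adjusted threshold the block gave 0 lower and 0 higher, against 0.0255% and 0.0102% of all genes. The unadjusted counts moved with single libraries: 11 members were lower without knockout replicate 1 (background 4.61%) and 5 without knockout replicate 3 (background 4.19%), and 2 were higher, Dhcr7 and Abcg1, without knockout replicate 2 (background 6.84%).

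**Figure D1:**
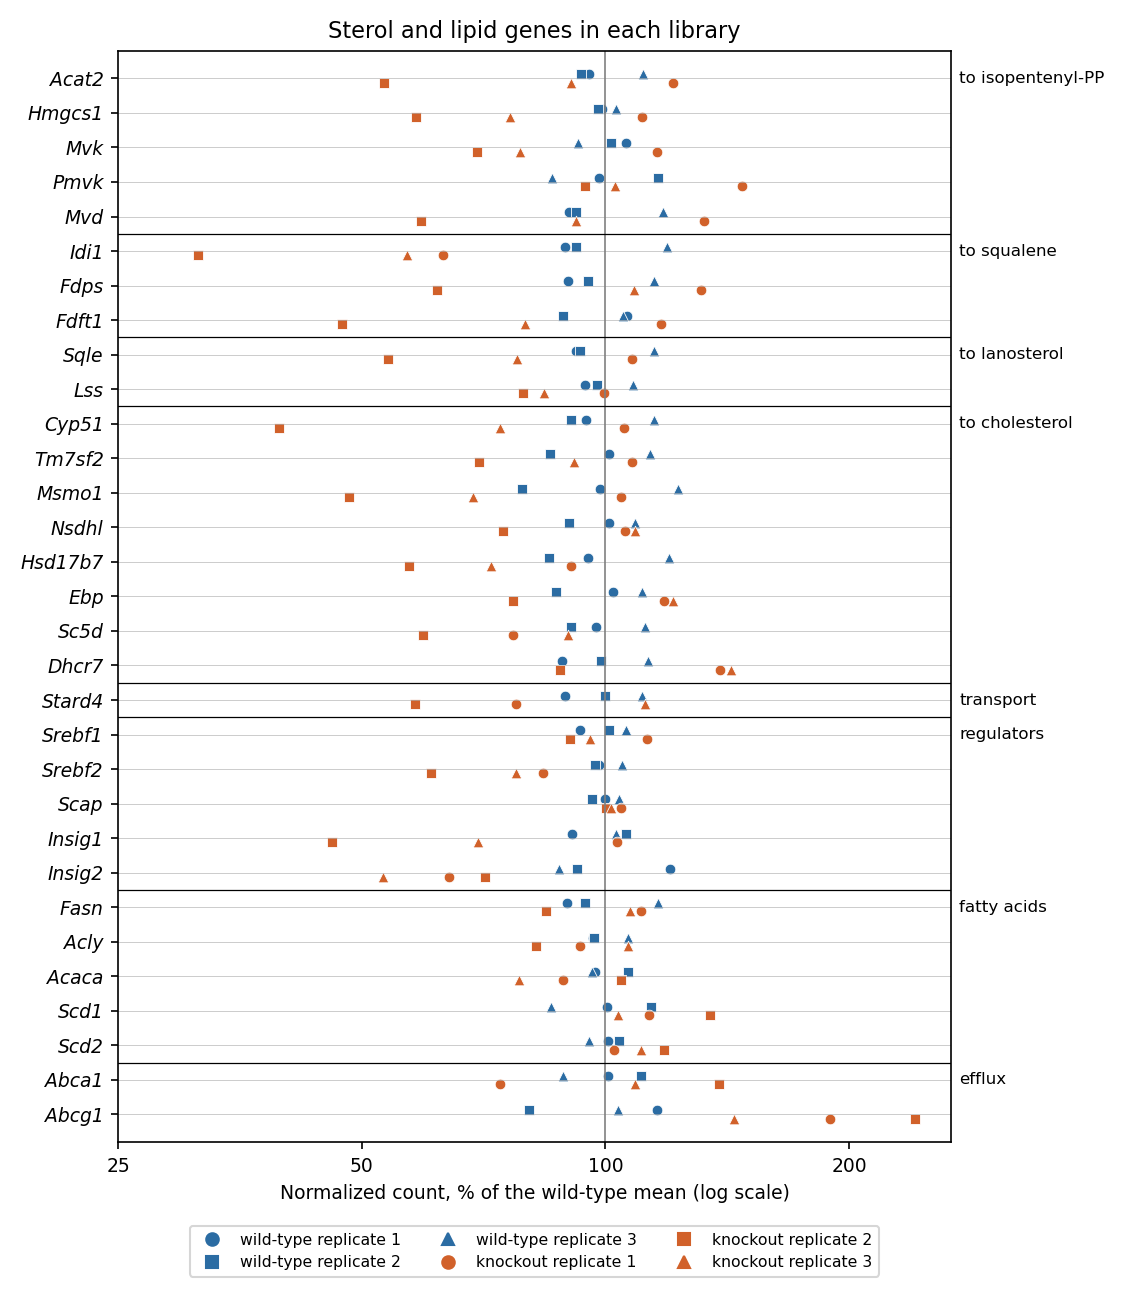
Normalized count of each gene in each library as a percentage of the wild-type mean (log scale), in pathway order; circles, squares and triangles are replicates 1, 2 and 3. Knockout replicate 2 (orange squares) is the lowest library for 17 of the 18 synthesis enzymes, while Idi1, Srebf2, Insig2 and Sc5d are lower in all 3 knockout libraries.

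The first enzymes lead from acetyl-CoA to isopentenyl pyrophosphate. Acat2, the cytosolic thiolase, Hmgcs1, which makes HMG-CoA, the kinases Mvk and Pmvk, and the decarboxylase Mvd had log2 changes of −0.29 to 0.20, with adjusted p of 0.825 to 0.98. Hmgcs1 had 3768, 3722 and 3918 normalized counts in wild-type replicates 1, 2 and 3, a narrow range. In knockout it had 4215, 2216 and 2898, so knockout replicate 1 was above all wild-type libraries and the other 2 below them (log2 −0.29 ± 0.22). Acat2 ranged over 673 to 801 normalized counts in wild-type and 383 to 872 in knockout, Mvk over 780.3 to 895 and 586 to 978, Pmvk over 412 to 558 and 454 to 708, and Mvd over 724 to 944 and 474 to 1061. Among the knockout libraries all 5 genes were lowest in replicate 2, which held for 35.1% of all genes, and highest in replicate 1. Acat2 shares 45.9% of its 50-base stretches with Acat3, so its reads may be split between the copies.

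Idi1 (mm10, chr13:8885501-8892451, plus strand), the isomerase that turns isopentenyl into dimethylallyl pyrophosphate, was the enzyme with the widest genotype difference. It had 994, 1027 and 1329.6 normalized counts in wild-type and 703, 350.2 and 635 in knockout replicates 1, 2 and 3. Each knockout library was below each wild-type library. The knockout mean was 50.4% of wild-type (1117 ± 185 and 563 ± 187, SD, n = 3 each; log2 −0.99 ± 0.27 SE), with an adjusted p of 0.34 in edgeR and 0.0438 in DESeq2. Without knockout replicate 2 the change was −0.73 (edgeR adjusted p = 0.202). Idi1 shares 21.3% of its 50-base stretches with 4 other annotated genes, whose counts summed to 24.4 to 54.3 in wild-type and 14.5 to 28.9 in knockout, far below its own.

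The next enzymes on the same route did not follow Idi1. Fdps, which makes farnesyl pyrophosphate, had 2246, 2375 and 2869 normalized counts in wild-type and 3277, 1545 and 2705 in knockout (log2 0.01 ± 0.26), with groups that overlapped. Fdft1, squalene synthase, ranged over 1849 to 2221 in wild-type and 985 to 2443 in knockout, with a knockout mean of 81.2% of wild-type (log2 −0.30 ± 0.30). The counts of Fdft1 are uncertain, since its exons overlap those of the far more abundant Ctsb on the other strand, and no source used here says whether reads were counted by strand. Fdps shares 11.7% of its 50-base stretches with other annotated genes, Gm43738 among them, and Fdft1 10.9% with Gm6781, so reads of both may be split.

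Each enzyme was then set against the median of the other 17 in the same library, a measure chosen after the values were seen. On this scale Idi1 was at −0.12, 0.00 and 0.10 log2 in wild-type and −0.80, −0.91 and −0.65 in knockout replicates 1, 2 and 3. The gap between the nearest libraries of the genotypes was 0.53. Dhcr7, the reductase of the last step, lay on the other side, at −0.14, 0.10 and 0.01 in wild-type and 0.36, 0.57 and 0.77 in knockout. Cyp51 was also lower without overlap, by a gap of 0.03, and Fdps and Ebp higher, by 0.02 and 0.03. The other 13 enzymes overlapped. No share of all genes was computed on this scale, so the counts without overlap have no background beside them. Idi1 was thus low within the pathway in all 3 knockout libraries, including replicate 1, where the median enzyme was at 109% of its wild-type mean.

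**Figure D2:**
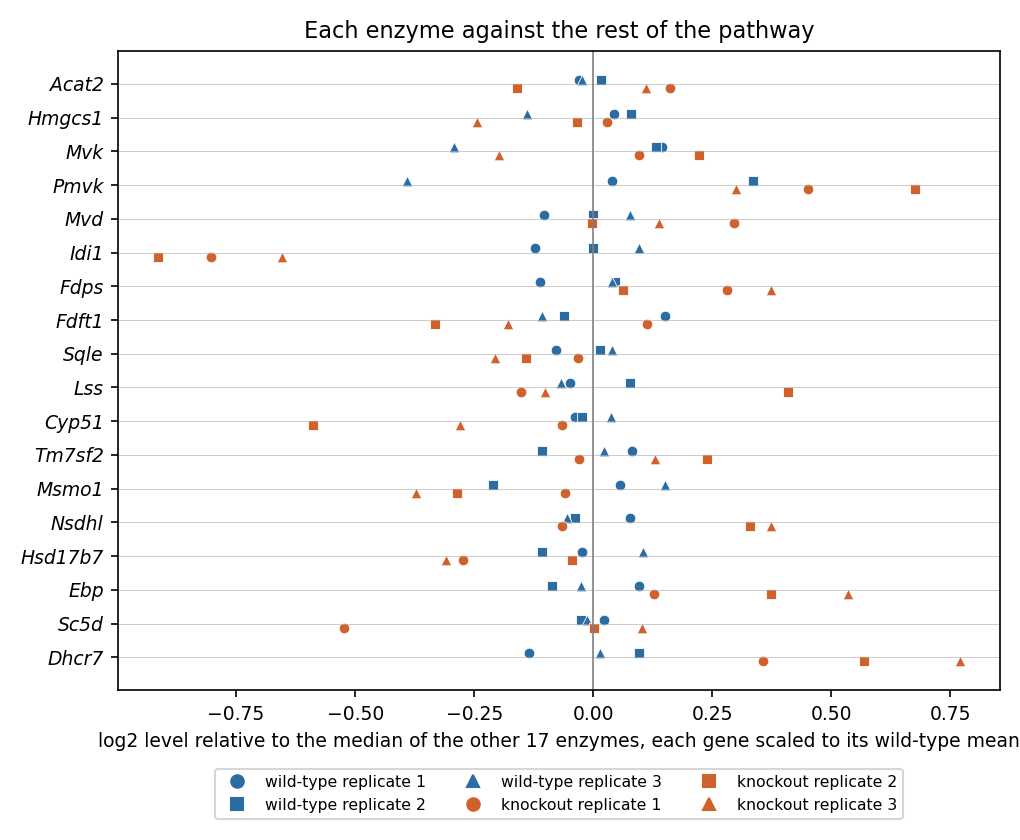
Level of each synthesis enzyme relative to the median of the other 17 in the same library, on a log2 scale with each gene scaled to its wild-type mean. The knockout values of Idi1 lie between −0.91 and −0.65, apart from wild-type values of −0.12 to 0.10.

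Squalene is closed into lanosterol by Sqle, the epoxidase, and Lss, the cyclase. Sqle had 2498, 2525 and 3116 normalized counts in wild-type and 2925, 1459.9 and 2111 in knockout. Knockout replicate 2 was the lowest and knockout replicate 1 lay among the wild-type values (log2 −0.32 ± 0.25). Lss showed the same order over a smaller range, from 709 in knockout replicate 2 to 969 in wild-type replicate 3 (log2 −0.19 ± 0.14).

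Of the 8 enzymes from lanosterol to cholesterol, 6 had negative and 2 positive changes. Cyp51, the lanosterol demethylase, had 2772, 2658 and 3360 normalized counts in wild-type and 3089, 1156 and 2168 in knockout (log2 −0.45 ± 0.32). Knockout replicate 1 lay among the wild-type values and the other 2 below them. Msmo1, the methyl sterol oxidase, had the same knockout order, with 2331, 1868 and 2909 in wild-type and 2479, 1141 and 1625 in knockout (log2 −0.44 ± 0.29). Hsd17b7, a ketoreductase of the demethylation complex, had 716, 641 and 901 in wild-type and 683, 431 and 543 in knockout (log2 −0.44 ± 0.21, edgeR adjusted p = 0.646). The groups overlapped only through knockout replicate 1, which lay above wild-type replicate 2.

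Sc5d (chr9:42251595-42264256, minus strand), the sterol desaturase, had 2319, 2163 and 2668 normalized counts in wild-type and 1832, 1416 and 2143 in knockout. The groups did not overlap, but knockout replicate 3 and wild-type replicate 2 were close (log2 −0.40 ± 0.18, edgeR adjusted p = 0.589). Dhcr7 went the other way, with 534, 595 and 682 in wild-type and 836, 531 and 862 in knockout (log2 0.30 ± 0.21). It was above all wild-type libraries in knockout replicates 1 and 3 and below them in replicate 2. Tm7sf2, a sterol reductase, Nsdhl, a dehydrogenase of the demethylation complex, and Ebp, the sterol isomerase, had log2 changes of −0.15, −0.05 and 0.08. Tm7sf2 ranged over 274 to 363 normalized counts in wild-type and 224 to 346 in knockout, Nsdhl over 1428 to 1725 and 1183 to 1722, and Ebp over 2031 to 2593 and 1795 to 2837, so all 3 overlapped. Exons of Cyp51 and Tm7sf2 overlap Akap9 and Vps51, whose counts were 177% and 417% of their own, which leaves both values uncertain.

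Across the 18 enzymes, 14 had a negative change (77.8%, where 47.9% of all genes did), and the median was −0.18 beside 0.01 for all genes. Without knockout replicate 2 10 of 18 were negative (55.6%, against 47.6% of all genes) and the median was −0.03, whereas without knockout replicate 1 it was −0.41. Knockout replicate 2 was the lowest of the 6 libraries for 17 of the 18 (94.4%), where it was so for 21.8% of all genes. Pmvk was the exception. The order knockout replicate 1 over 3 over 2 held for 14 of 18 (77.8%, against 19.8% of all genes). In wild-type, replicate 3 was the highest for 15 of 18 (83.3%, against 37% of all genes). The enzymes therefore moved together from library to library within a genotype.

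The median enzyme stood at 96.3%, 92.0% and 112% of its wild-type mean in wild-type replicates 1, 2 and 3, and at 109%, 59.3% and 87.0% in knockout replicates 1, 2 and 3. Knockout replicate 1 was within the wild-type range, replicate 3 below it and replicate 2 farther below. Marker levels of other cell types differed between the same libraries. The 12 uterine epithelium markers, all detected, summed to 93407 to 201350 normalized counts in wild-type and to 153954, 53162 and 246911 in knockout replicates 1, 2 and 3, so the library with the lowest enzyme levels also had the least epithelial RNA. Wild-type replicate 3, highest for most enzymes in its group, had the most epithelial RNA in that group, while knockout replicate 3 had the most of all libraries with enzymes below the wild-type range. Smooth muscle markers ran the other way, highest in knockout replicate 2 and lowest in knockout replicate 3. The median placental and fetal membrane marker was at 386%, 30.4% and 4.56% of its wild-type mean in knockout replicates 1, 2 and 3. It was thus highest where the knockout enzyme levels were highest, but lowest in replicate 3 and not in replicate 2. The part of tissue content in the enzyme levels was not tested.

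**Figure D3:**
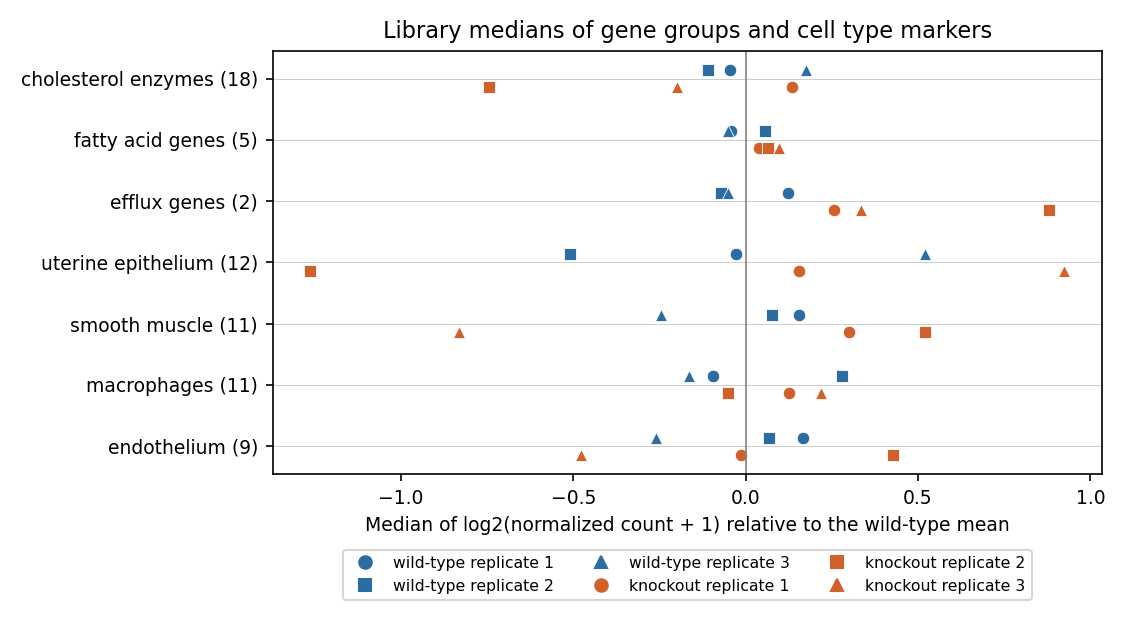
Median of log2(normalized count + 1), relative to the wild-type mean, over the genes of each group or marker list in each library. For the cholesterol enzymes knockout replicate 2 lies at −0.75 and the others between −0.20 and 0.18; the same library is lowest for uterine epithelium (−1.26) and highest for smooth muscle (0.52).

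Other marker lists gave the following sums. Macrophage markers (11 of 11 tested) summed to 86817 to 119019 normalized counts in wild-type and 97450 to 117708 in knockout, and endothelial markers (9 of 9) to 29080 to 35518 and 21528 to 40799. Fibroblast markers (8 of 8) summed to 937097 to 1553210 and 1039300 to 1241430. Of 12 adipocyte markers 5 had enough reads to test, and the list summed to 4820.3 to 5834 in wild-type and 4591 to 7304 in knockout. On that list Adipoq, Plin1 and Lep were at or near 0, with at most 4.62, 2.51 and 0.924 normalized counts in any library. Lpl, on the same list, was not, with 2426, 1563 and 1809 in wild-type and 4438, 3091 and 2008 in knockout replicates 1, 2 and 3. Of the 5 tested adipocyte markers 2 had negative and 3 positive changes. Placental and fetal membrane markers (11 of 13 tested) summed to 3631 to 3835 in wild-type and to 17828, 1864 and 810 in knockout replicates 1, 2 and 3. Steroidogenic markers (4 of 8 tested, Cyp19a1 at 0 in all libraries) summed to 27737 to 62368 and 49450 to 97393, most of it Akr1c18. Hepatocyte-type genes (3 of 8 tested) summed to 164 to 338 and 192 to 1824. Mesothelial genes (6 of 6) summed to 6898 to 12546 and 4033 to 5084. Those sums did not overlap, but 1 of the 6 genes was lower without overlap (background 7.31%). In edgeR 4 were lower at an unadjusted p under 0.05 (background 3.29%) and 0 at the adjusted threshold (background 0.0204%). DESeq2 called 1 mesothelial gene lower, and 1 on the adipocyte list (background 0.67%). The median of the mesothelial genes was 1.17, 0.56 and −1.82 log2 of the wild-type mean in wild-type replicates 1, 2 and 3. In knockout it was −1.87, −2.06 and −1.43, which overlapped. The part of these cells in the results was not tested.

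Among the regulators, Srebf2 and Insig2 were lower in every knockout library, while Srebf1 and Scap differed by less than the spread between libraries. Srebf2 (chr15:82147181-82205379, plus strand), the gene of SREBP-2, had 6988, 6909 and 7461 normalized counts in wild-type and 5962, 4336 and 5524 in knockout replicates 1, 2 and 3. The knockout mean was 74.1% of wild-type (log2 −0.43 ± 0.15, edgeR adjusted p = 0.475, DESeq2 adjusted p = 0.324), and −0.31 without knockout replicate 2. Srebf1, with 3011, 3272 and 3440.5 in wild-type and 3644, 2933 and 3103 in knockout, showed no such shift, and its knockout values enclosed those of wild-type (log2 0.00 ± 0.13). Its exons overlap Rai1 on the other strand, with counts of 94.1% of its own. Scap, the escort that carries SREBP to the Golgi, was the steadiest member, with 2006, 1931 and 2082 in wild-type and 2098, 2009.7 and 2035 in knockout (log2 0.03 ± 0.11).

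The INSIG genes, whose proteins anchor SCAP in the endoplasmic reticulum, differed from each other. Insig1, itself a target of SREBP, had 2258, 2632 and 2554 normalized counts in wild-type and 2567, 1140.2 and 1725 in knockout. Among the knockout libraries its order was that of 14 of the 18 enzymes, replicate 1 the highest and replicate 2 the lowest, with replicate 1 among the wild-type values (log2 −0.45 ± 0.27, edgeR adjusted p = 0.752). Insig2 (chr1:121304353-121332589, minus strand), which is not under the same sterol control, had 4448, 3411 and 3239 in wild-type and 2373, 2626 and 1962 in knockout. All knockout libraries were below all wild-type libraries, and knockout replicate 2 was here the highest of its group. The knockout mean was 62.7% of wild-type (log2 −0.67 ± 0.17, edgeR adjusted p = 0.327, DESeq2 adjusted p = 0.0706), and the change was −0.77 without knockout replicate 2. Of the 5 regulators, 2 were lower at an unadjusted p under 0.05 (3.29% of all genes) and 0 at the adjusted threshold (0.0204% of all genes).

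**Figure D4:**
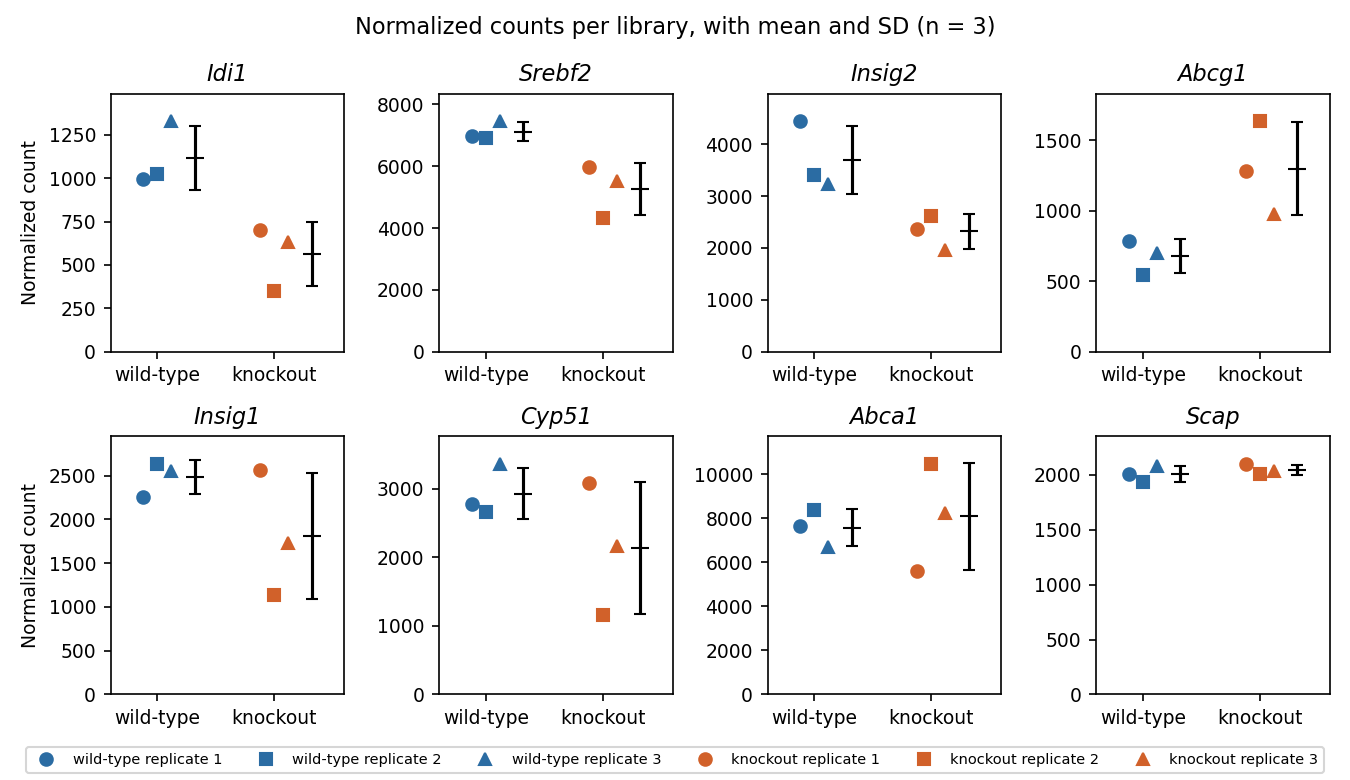
Normalized counts per library with the mean and SD (n = 3) for 8 genes; every axis starts at 0. Idi1, Srebf2 and Insig2 are lower and Abcg1 higher in all knockout libraries, Insig1, Cyp51 and Abca1 spread widely within knockout, and Scap is level.

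The fatty acid genes had smaller changes, in both directions. Fasn, fatty acid synthase, Acly, which supplies cytosolic acetyl-CoA, Acaca, the carboxylase that makes malonyl-CoA, and the desaturases Scd1 and Scd2 had log2 changes of −0.14 to 0.23, each with an SE of at least 0.14 and an adjusted p of 0.787 to 0.994. Fasn ranged over 6509.9 to 8429 normalized counts in wild-type and 6142 to 8051 in knockout, Acly over 10418 to 11518 and 8850.1 to 11521, and Acaca over 2605 to 2883 and 2113 to 2823. Scd1 ranged over 1791 to 2379 and 2166 to 2809, and Scd2 over 29517 to 32142 and 31708 to 36501. The genotypes overlapped for all 5. Between libraries of the same number, Scd1 and Scd2 were higher in knockout in 3 of 3 pairs, with edgeR adjusted p of 0.577 and 0.821 with the replicate block. The share of all genes with that pattern was not computed, and the pairs rest only on the number in the sample titles. The median of the 5 fatty acid genes per library lay between −0.05 and 0.10 log2 of the wild-type mean in all 6 libraries. Knockout replicate 2 was the lowest of all for Fasn (6142) and Acly (8850) and the highest for Scd1 (2809) and Scd2 (36501). Scd1 and Scd2 share 4.66% and 4.01% of their 50-base stretches with related desaturase genes, and Acaca shares 52.6% with the annotated gene Gm5182, so the Acaca value is uncertain.

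Of the exporters, Abcg1 was higher in every knockout library and Abca1 was not. Abcg1 (chr17:31057675-31117988, plus strand) had 786, 547 and 704 normalized counts in wild-type and 1286, 1637 and 978 in knockout. The knockout mean was 1.92-fold that of wild-type (679 ± 122 and 1301 ± 330, SD, n = 3 each; log2 0.94 ± 0.23 SE), with an adjusted p of 0.297 in edgeR and 0.0208 in DESeq2, and the change was 0.74 without knockout replicate 2. Abca1 had 7633, 8383 and 6713 in wild-type and 5609, 10469 and 8239 in knockout, so its knockout libraries enclosed the wild-type range (log2 0.10 ± 0.23). Both exporters were highest in knockout replicate 2 (2 of 2, where 21.6% of all genes were), the library in which the synthesis enzymes were lowest. Stard4, a carrier that moves sterol between membranes, had 2707, 3031 and 3372 in wild-type and 2351, 1766 and 3395 in knockout (log2 −0.28 ± 0.24).

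**Figure D5:**
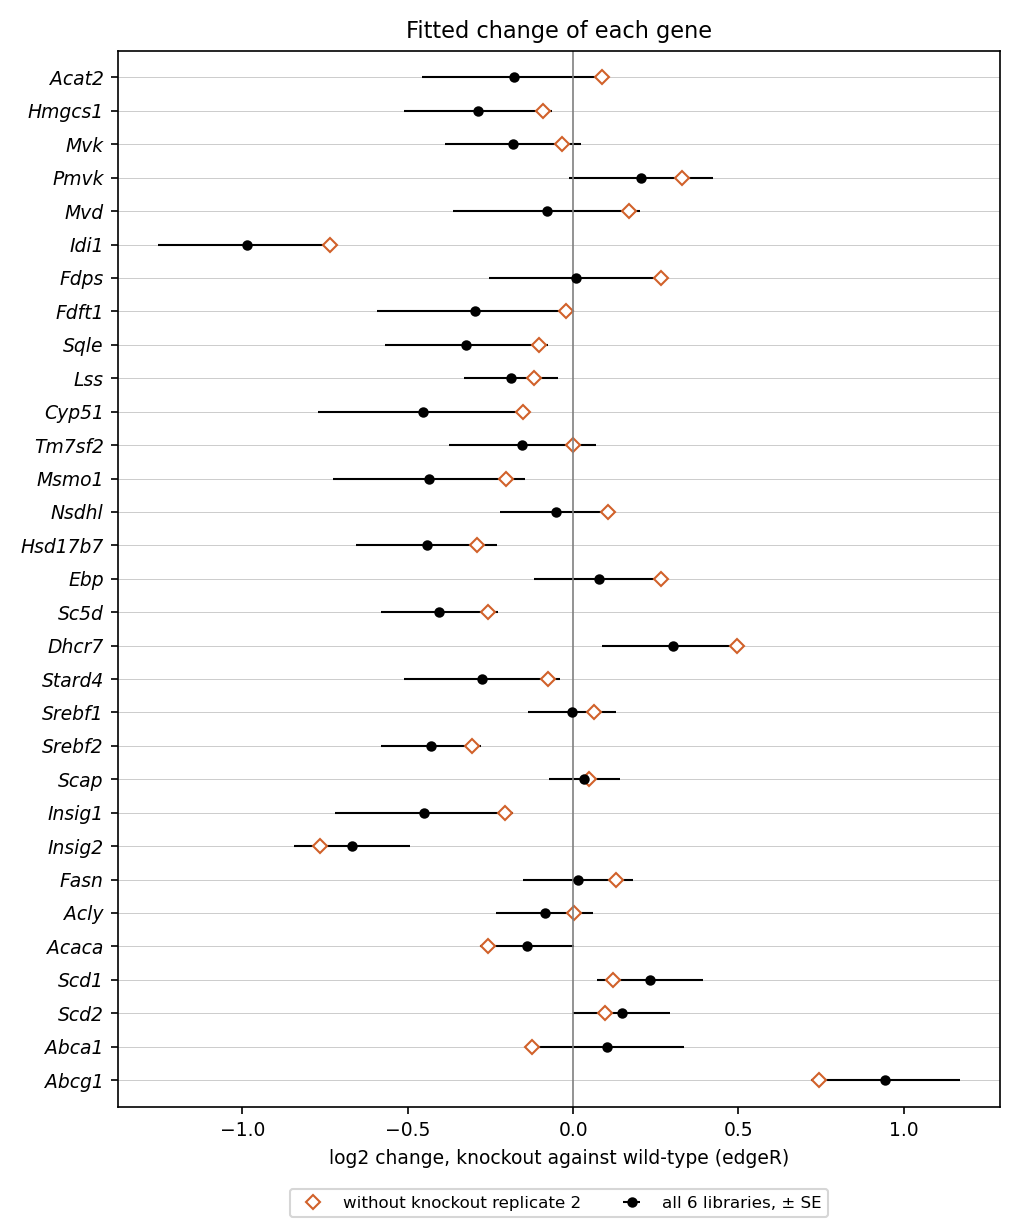
Fitted log2 change of each gene, knockout against wild-type, with its SE over all 6 libraries (black) and without knockout replicate 2 (orange diamonds). Without that library the median of the 18 enzymes goes from −0.18 to −0.03. Idi1 is then at −0.73, Insig2 at −0.77, Srebf2 at −0.31 and Abcg1 at 0.74. The genotypes do not overlap for these genes, so their direction could hardly change.

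Levels were also compared between genes, as wild-type normalized counts per kb of annotated exon. Scd2 was the highest, at 5659 ± 242 per kb (SD, n = 3), and Acly next at 2044 ± 119. Insig2 (1065 ± 188), Ebp (1012 ± 123) and Srebf2 (991 ± 41.5) followed and did not differ beyond their spread. Srebf2 exceeded Srebf1 (575 ± 38.4) by more than their spread, and Insig2 exceeded Insig1 (802 ± 63.7), though with libraries of Insig2 that varied. Idi1 was in the lower part of the order, at 319 ± 52.8, against 593 ± 78.2 for Fdps. The lowest were Abcg1 (93.0 ± 16.7), Lss (83.1 ± 6.0) and Tm7sf2 (72.8 ± 10.2), which lay close together. Exon lengths merge all annotated transcripts, so a gene with long minor transcripts would be placed too low. Whether this holds for Lss, with 10.8 kb, was not tested.

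Wider lists of the pathway were read for their counts. At the adjusted threshold edgeR called 0 genes in them (0.0204% of all genes were lower and 0% higher). DESeq2 called 1, Mid1ip1, on the higher side (1.22% of all genes were higher and 0.67% lower). The shares of all genes to read beside these counts are 47.9% negative, and, at an unadjusted p under 0.05, 3.29% lower and 5.27% higher. Of 13 tested genes for SREBP processing and sterol sensing in the endoplasmic reticulum, 9 were negative and 4 positive, with a median of −0.05 and 0 at an unadjusted p under 0.05. The smallest p there belonged to Ube2g2, a ubiquitin-conjugating enzyme gene (log2 −0.16 ± 0.14). Of 15 genes for isoprenoid branches and accessory enzymes, 8 were negative and 7 positive, with a median of 0.00 and 1 lower at an unadjusted p under 0.05 (3.29% of all genes). That gene was Ggps1, which makes geranylgeranyl pyrophosphate from farnesyl pyrophosphate, the product of Fdps. It had 4337, 3464 and 3712 normalized counts in wild-type and 2614, 2796 and 2357 in knockout, without overlap (log2 −0.56 ± 0.14, edgeR adjusted p = 0.307). On the higher side 2 genes of that list did not overlap, Fntb (log2 0.15 ± 0.12) and Cyb5r3 (log2 0.18 ± 0.14), named after their values were seen, so the list had 1 gene lower and 2 higher without overlap (7.31% and 7.1% of all genes).

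Of 24 genes for cholesterol trafficking, esterification and oxysterol synthesis, 10 were negative and 14 positive, with a median of 0.04, 3 lower and 0 higher at an unadjusted p under 0.05 (3.29% and 5.27% of all genes). The 3 were Vldlr, a lipoprotein receptor gene (21885 ± 1945 and 11908 ± 4098 normalized counts, log2 −0.87 ± 0.26), its relative Lrp8 (log2 −0.94 ± 0.31) and Stard13 (log2 −0.44 ± 0.18). Vldlr had 24105, 21069 and 20481 in wild-type and 11302, 16275 and 8147 in knockout. The same 3 genes were lower without overlap and 0 of the list were higher without overlap (7.31% and 7.1% of all genes). Of 23 further fatty acid and phospholipid genes, 11 were negative and 12 positive, with a median of 0.01 and 1 higher at an unadjusted p under 0.05 (5.27% of all genes). This was Mid1ip1, whose protein activates acetyl-CoA carboxylase, with 2775, 3095 and 2654 in wild-type. Its knockout libraries had 4715, 6346 and 8723, all above wild-type, for a log2 change of 1.22 ± 0.23 (adjusted p of 0.207 by edgeR and 0.00042 by DESeq2). Of these 23 genes 2 were lower and 1 higher without overlap (7.31% and 7.1% of all genes). Of 14 LXR genes and targets other than the exporters, 10 were positive and 4 negative, with a median of 0.09 and 2 higher at an unadjusted p under 0.05 (5.27% of all genes). They were Mylip, a ubiquitin ligase gene that LXR induces (log2 0.43 ± 0.16), and Lpl, lipoprotein lipase (log2 0.72 ± 0.30), which is also on the adipocyte list; both overlapped between genotypes.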

How the data were processed

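RNA-seq of 6 myometrium libraries was analysed, 3 per genotype. The authors deposited 1 file of raw counts per library, by Ensembl gene, and a table of normalized values, a signal that was found to be each raw count multiplied by a library constant (0.804 to 1.26). Build mm10 and the tools HTSeq 0.9.1, DESeq2 2.11.40.7, FastQC 0.73 and HISAT2 2.2.1 are listed, per the submitters' processing notes, without role or order. No source used here gives the annotation release or how strand was treated in counting. The test was edgeR 4.0.16 in R 4.3.3 (filterByExpr, TMM, quasi-likelihood, genotype as the term, Benjamini-Hochberg over 19599 genes, threshold 0.05). Alternatives were RLE and upper-quartile scaling, other filters, DESeq2 1.42.0, limma-voom (limma 3.58.1), limma on log2(normalized value + 1), the replicate block and leaving out each library.

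Exon lengths, overlaps and shared 50-base stretches came from GENCODE M21. Members and gene lists were chosen with earlier results of these data known. All 31 members are named, with values per library for the regulators and the 8 members with the smallest p, and from each wider list up to 4 genes at an unadjusted p under 0.05, or else the gene with the smallest; values per library of other members were added for description. Spring1, on 1 wider list, was not matched by symbol. No pair of replicates matched within sampling noise (chi-square over its degrees of freedom, 36.3 to 234). Same-numbered libraries of the genotypes, paired only by the number in the sample titles, had correlations of deviations from the group mean of 0.147, 0.188 and 0.201, and others −0.213 to 0.057. Errors are the SD or SE over 3 animals per group.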

Additional observations from a re-analysis of the deposited data

How the results depend on the processing

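No member passed the adjusted threshold in either direction under any edgeR or limma setting, and DESeq2 called 1 lower (Idi1) and 1 higher (Abcg1). The count lower at an unadjusted p under 0.05 was 3; it was 4, with Sc5d, without the filter on low counts, with limma-voom and with limma on normalized values, 5 with the replicate block and 3 in the other settings with all libraries. With 1 library left out it ran from 2 to 11, the 11 without knockout replicate 1 and 5 without knockout replicate 3. The count higher ran from 1 to 2, the 2 without knockout replicate 2, and the median change of the 18 enzymes from −0.41 without knockout replicate 1 to −0.028 without knockout replicate 2. Counts called stayed at 0 with any 1 library left out, and the change of Tcf23 ran from −12.85 to −11.36. The block changed no other call. Srebf1 had the other sign with RLE scaling (0.0018), upper-quartile scaling (0.033) and the stricter filter (0.0092), and Fdps with limma-voom (−0.051), limma on normalized values (−0.053) and the replicate block (−0.049); the cause was not tested. With 1 library left out, changes crossed 0 for Fdps (−0.22 to 0.26), Fasn (−0.057 to 0.13), Ebp (−0.035 to 0.26), Srebf1 (−0.089 to 0.062), Mvd (−0.39 to 0.17), Nsdhl (−0.15 to 0.10), Pmvk (−0.0054 to 0.33), Acat2 (−0.47 to 0.086), Tm7sf2 (−0.30 to 0.00061), Acly (−0.19 to 0.0042) and Abca1 (−0.12 to 0.32). Those of the other members did not. For Idi1, Srebf2, Insig2, Sc5d and Abcg1 the genotypes did not overlap, so leaving out 1 library could hardly turn the direction. Depth limits no member, since the lowest wild-type mean was 320.3 normalized counts (Tm7sf2).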

Other observations

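Ratios of paired genes within a library, per kb of exon and so free of the library scaling, were computed after the values had been seen. Idi1 relative to Fdps, its neighbour in the pathway, was 0.53, 0.52 and 0.56 in wild-type replicates 1, 2 and 3 and 0.26, 0.27 and 0.28 in knockout. The ratio varied little within a genotype although both genes varied widely between knockout libraries. Srebf1 relative to Srebf2 was 0.55, 0.60 and 0.59 in wild-type and 0.78, 0.86 and 0.72 in knockout, where the exon overlap of Srebf1 with Rai1 leaves the ratio uncertain. Abca1 relative to Abcg1 was 6.84, 10.8 and 6.72 in wild-type and 3.07, 4.50 and 5.93 in knockout. Insig1 relative to Insig2 was 0.57, 0.87 and 0.89 in wild-type and 1.21, 0.49 and 0.99 in knockout, with overlap, and Scd2 relative to Scd1 was 12.1 to 14.8 and 11.6 to 14.1. These ratios are values only, with no test. Idi1, Srebf2 and Abcg1 already did not overlap between genotypes by themselves, so the separation of their ratios adds no support. No share over all gene pairs was computed.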
